A study of Mus musculus with 6 samples.

Results

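Histone H3 acetylation (H3ac) was examined at 10 genes of the Wnt pathway in MSCs (mesenchymal stem cells) of the mouse, stromal cells that can give rise to bone, cartilage and fat. The genes were Wnt1, Wnt10b, Wnt5a, Lrp5, Lrp6, Ctnnb1, Axin2, Tcf7l2, Lef1 and Dkk1. A region of the H3ac table was assigned to a gene where its interval (mm10) overlapped the gene body extended by 5 kb on both sides (GENCODE M21), and 22 of the 24431 regions of the table met this rule. A region within 1 kb of the 5′ end of the gene was taken as its promoter region. There were 9 promoter regions and 13 other regions, in 9 of the 10 genes, and Dkk1 had none.

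H3ac was profiled with CUT&RUN, a method that cuts out and sequences the DNA around chromatin bound by an antibody. There were 3 groups with 2 libraries each. The Young group had untreated cells of mice aged 3 to 5 months, and the Old group untreated cells of mice aged 18 to 22 months. In the OldAcetate group, mice were also 18 to 22 months old and their cells had 5 mM sodium acetate for 3 days. All 3 groups were cultured at 2% O2 with 10% FBS and 1% penicillin/streptomycin. The comparisons therefore address how H3ac differs with age, and how it differs between old cells with and without acetate, which cells can convert to acetyl-CoA. The labels do not say whether the libraries of a group came from separate animals or cultures, so p-values measure only the spread between these samples, which may be technical. No RNA or protein was measured in these libraries.

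Wnt ligands are secreted proteins that bind Frizzled receptors together with the co-receptors LRP5 and LRP6. In the canonical branch this stops the destruction complex, which holds AXIN2 among its scaffolds, from degrading β-catenin (encoded by Ctnnb1), and β-catenin then enters the nucleus and acts with TCF and LEF factors on target genes. Secreted DKK1 blocks the co-receptors. In stromal cells the pathway is known for favouring bone formation over fat formation.

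Promoter sequences were compared first, because the presence of an H3ac region differed between starts of these genes. Windows from 250 bases before to 50 bases after each start (RefSeq, GRCm38.p6) were matched for 7 of the 10 genes, with 12 starts in all. Wnt5a, Lrp5 and Lrp6 were not matched. Of the 12 windows, 10 lay in an H3ac region and 2 did not. Those 2 were the window of an internal Lef1 start at chr3:131156044-131156343 and that of Dkk1 at chr19:30549447-30549746. The sequences before 6 starts are shown in lower case with each CG dinucleotide in capitals, 5′ to 3′ on the strand of the gene. The first 4 lay in an H3ac region and the last 2 did not, and for Dkk1 the bases that GENCODE places in an exon are left out.
Ctnnb1, first start, chr9:120933150-120933399, plus strand: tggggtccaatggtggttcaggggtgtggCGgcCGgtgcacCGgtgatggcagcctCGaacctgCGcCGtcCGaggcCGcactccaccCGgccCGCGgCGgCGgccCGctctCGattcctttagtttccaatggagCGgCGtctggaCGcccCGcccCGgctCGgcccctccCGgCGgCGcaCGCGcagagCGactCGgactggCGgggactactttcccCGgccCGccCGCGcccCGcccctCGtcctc
Axin2, chr11:108920099-108920348, plus strand: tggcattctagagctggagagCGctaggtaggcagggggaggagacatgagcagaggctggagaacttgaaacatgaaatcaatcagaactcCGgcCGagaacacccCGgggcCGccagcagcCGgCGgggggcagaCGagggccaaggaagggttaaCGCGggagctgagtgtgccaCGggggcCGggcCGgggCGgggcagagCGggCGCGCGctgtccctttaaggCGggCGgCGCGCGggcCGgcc
Tcf7l2, first start, chr19:55741560-55741809, plus strand: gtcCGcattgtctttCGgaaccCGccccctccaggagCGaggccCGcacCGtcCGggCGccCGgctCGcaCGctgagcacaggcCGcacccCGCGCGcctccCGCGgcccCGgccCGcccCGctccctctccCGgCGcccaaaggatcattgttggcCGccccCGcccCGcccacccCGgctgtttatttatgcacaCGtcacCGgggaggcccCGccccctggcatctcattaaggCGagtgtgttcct
Tcf7l2, internal start, chr19:55895071-55895320, plus strand: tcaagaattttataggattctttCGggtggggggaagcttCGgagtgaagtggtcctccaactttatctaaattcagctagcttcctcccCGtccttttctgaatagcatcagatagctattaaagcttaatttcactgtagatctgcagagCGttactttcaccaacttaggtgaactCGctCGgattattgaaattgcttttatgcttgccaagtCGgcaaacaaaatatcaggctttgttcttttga
Lef1, internal start, chr3:131156044-131156293, plus strand: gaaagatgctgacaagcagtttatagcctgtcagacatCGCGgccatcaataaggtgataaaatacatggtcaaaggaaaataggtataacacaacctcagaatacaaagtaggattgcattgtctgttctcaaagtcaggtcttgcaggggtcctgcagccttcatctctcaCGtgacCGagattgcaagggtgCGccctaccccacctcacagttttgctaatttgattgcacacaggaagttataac
Dkk1, chr19:30549666-30549746, minus strand: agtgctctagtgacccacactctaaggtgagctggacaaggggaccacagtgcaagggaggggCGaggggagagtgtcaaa

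The whole 300-base windows held 46 and 51 CG dinucleotides at the first and second Ctnnb1 starts, 34 at the first Tcf7l2 start and 31 at Axin2. Wnt1 had 26 and Wnt10b 18, and the 3 Lef1 starts in the promoter region had 18, 21 and 8. The internal Tcf7l2 start, which lay in an H3ac region, had 7. The internal Lef1 start and Dkk1, outside the regions, had 5 and 9. The number of CG dinucleotides was thus low at both starts without a region, but 2 starts in a region had 7 and 8. Across all 32619 RefSeq windows, 46.0% overlapped an H3ac region. This share was 14.3% of windows with 0 to 4 CG dinucleotides, 31.5% with 5 to 9, 59.2% with 10 to 14, 76.3% with 15 to 19, 86.0% with 20 to 29 and 89.0% with 30 or more.

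**Figure D1:**
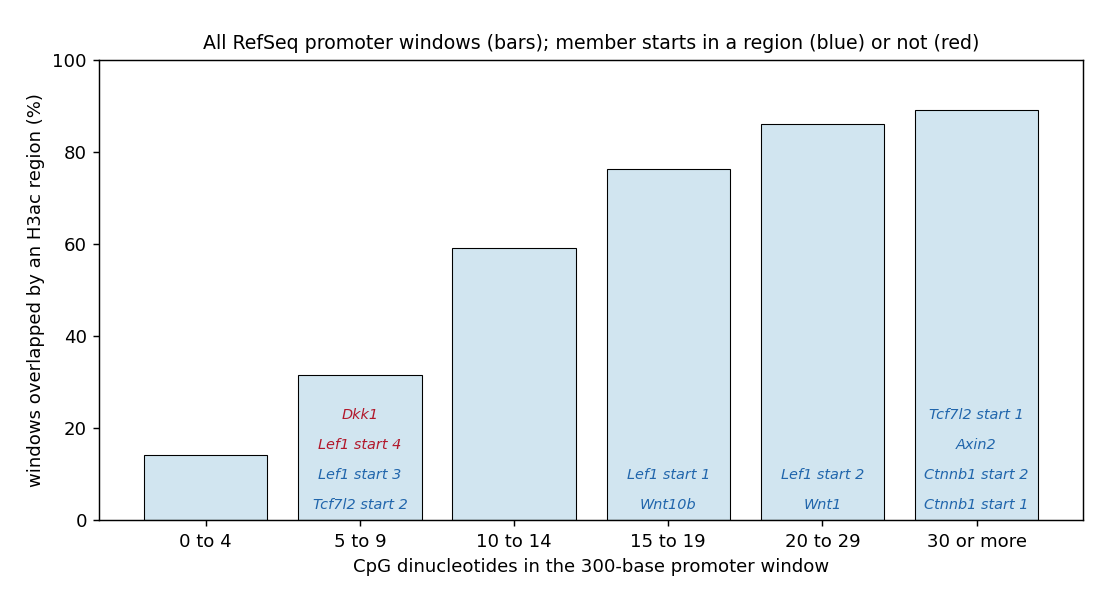
Bars give the percent of all RefSeq promoter windows overlapped by an H3ac region (vertical axis) by the number of CG dinucleotides in the 300-base window (horizontal axis), and names place the 12 starts of 7 Wnt pathway genes in these classes, blue where the start lay in a region and red where it did not. The bars rise from 14.3% to 89.0%, and Dkk1 and Lef1 start 4, the internal start, stand in the class of 5 to 9.

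The windows were also searched for CTTTGA on both strands (TCAAAG on the other), letters that the DNA-binding domain of TCF and LEF factors can recognise. None of the 10 windows in an H3ac region held it, though the windows of the first and second starts overlapped at Ctnnb1 and at Lef1. The internal Lef1 start held it at 2 positions, 180 and 120 bases before the start. Dkk1 also held it at 2, 174 and 117 bases before the start. There the 30-base stretches around the matches held 13 and 30 exon bases. Of all windows, 16.0% held it at least once and 1.74% at least 2 times, and it was in 11.8% of windows in a region against 19.6% of windows outside. The Lef1 matches are shown with the motif in capitals.
Lef1, 180 bases before the internal start, chr3:131156102-131156131, plus strand: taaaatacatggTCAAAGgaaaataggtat
Lef1, 120 bases before the internal start, chr3:131156162-131156191, plus strand: cattgtctgttcTCAAAGtcaggtcttgca
A match describes these letters only, and binding of a factor was not measured.

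The values of the table were taken as RPM, the reads of a region scaled to the total of the library. They were not divided by region length. If values are scaled to each library's own total, which the sources do not state, library totals were between 2163351 and 3039481 reads. The median region held 31 to 56 reads. On the same assumption, the share of reads in the 24431 regions was 64.8% and 57.8% for the Young libraries. It was 49.9% and 45.9% for the Old ones and 57.3% and 56.3% for the OldAcetate ones. This share differed between groups in the same directions as most of the values below, and its part in them was not tested. As a check of the label, 9 of 9 stromal marker genes had a promoter region, whereas 0 of 8 marker genes of blood, endothelial or epithelial cells had one and 1 had a region elsewhere in its window.

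H3ac covered these genes to very different extents. The regions took up 93.4% of the extended window of Wnt10b, 65.2% of Lrp6, 63.7% of Tcf7l2, 62.5% of Wnt5a and 50.9% of Ctnnb1. They covered 32.2% of Wnt1, 19.7% of Lrp5, 18.5% of Axin2 and 4.04% of Lef1, where a single region lay at the start of a gene of 113886 bp. Regions of 20 kb or more made up 7 of the 22 (31.8%) against 6.99% of all regions, and the median length was 9750 bp against 5500 bp. The 7 were at Tcf7l2, Lrp6 and Wnt10b only. Assignment by overlap with an extended gene body itself favours long regions, and all regions include those outside genes. Some of these regions are shared with neighbours: the Wnt10b region also covered Arf3, and the last Lrp6 region reached Bcl2l14, so their values do not belong to the Wnt pathway gene alone.

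**Figure D2:**
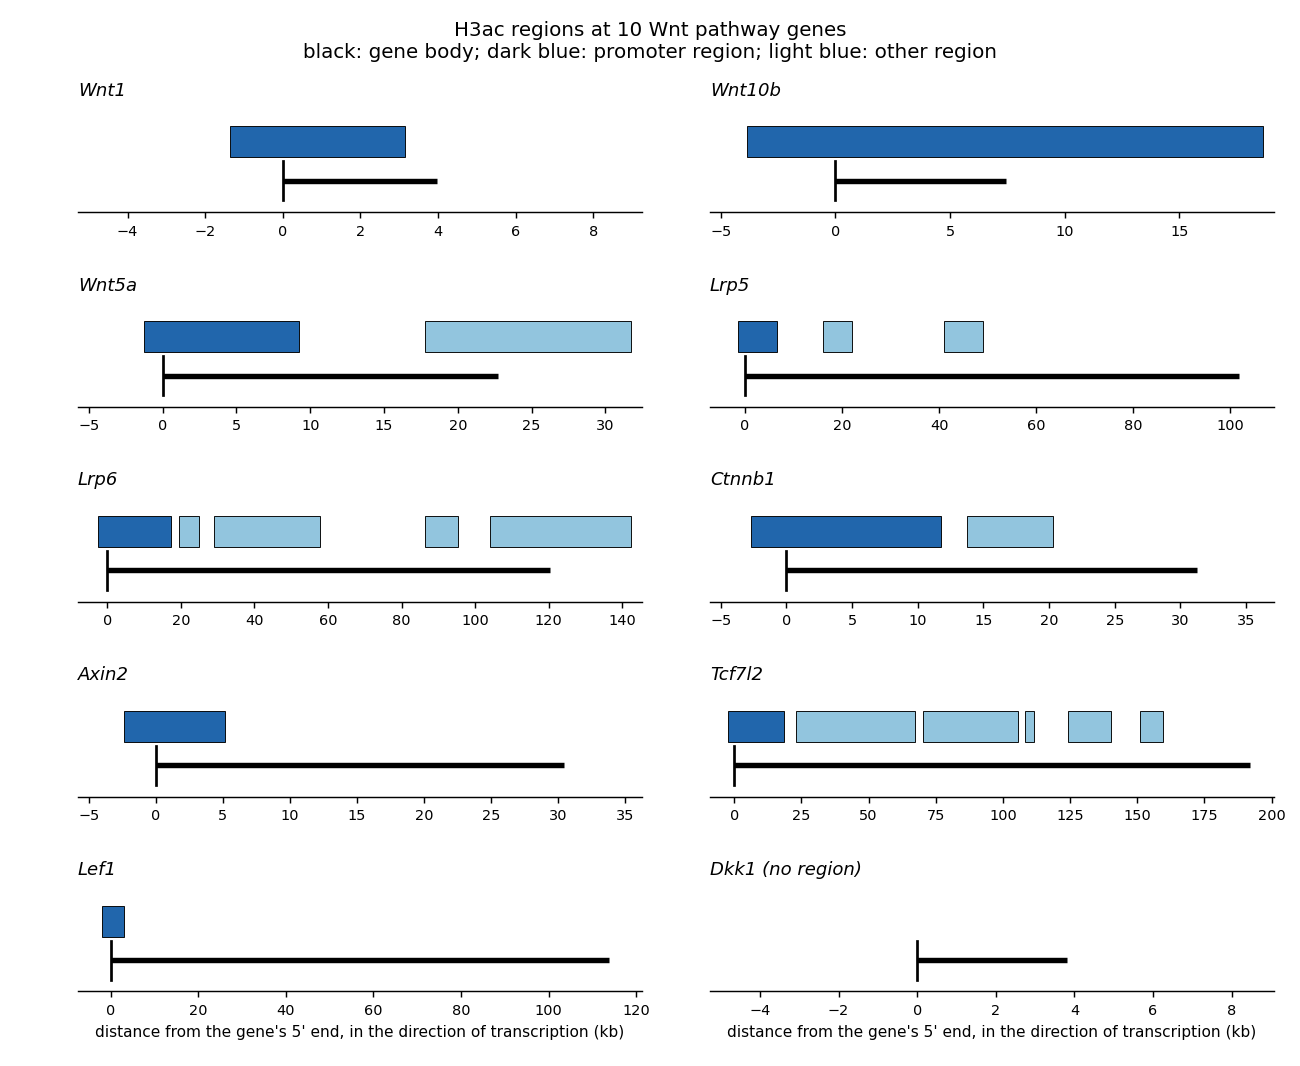
For each of the 10 genes, the black line is the gene body and the boxes above it are the H3ac regions, dark blue for the promoter region and light blue for others, by distance from the 5′ end of the gene in kb in the direction of transcription. Tcf7l2 has 6 regions and Lrp6 has 5, whereas Wnt1, Wnt10b, Axin2 and Lef1 have 1 each and Dkk1 has none.

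Per kb of region, and as the mean of all 6 libraries, the promoter level was 4.81 RPM/kb at Wnt5a and 3.62 RPM/kb at Axin2. It was 3.23 at Lef1, 3.21 at Tcf7l2, 2.94 at Lrp5, 2.42 at Lrp6, 2.38 at Wnt10b, 2.24 at Wnt1 and 2.07 RPM/kb at Ctnnb1. Wnt5a was above Axin2 in both libraries of each group without overlap, and each of the other 7 neighbouring pairs in this order overlapped in at least 1 group. The median of the 9 promoter regions was 2.94 RPM/kb against 3.07 RPM/kb for all 9892 promoter regions.

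**Figure D3:**
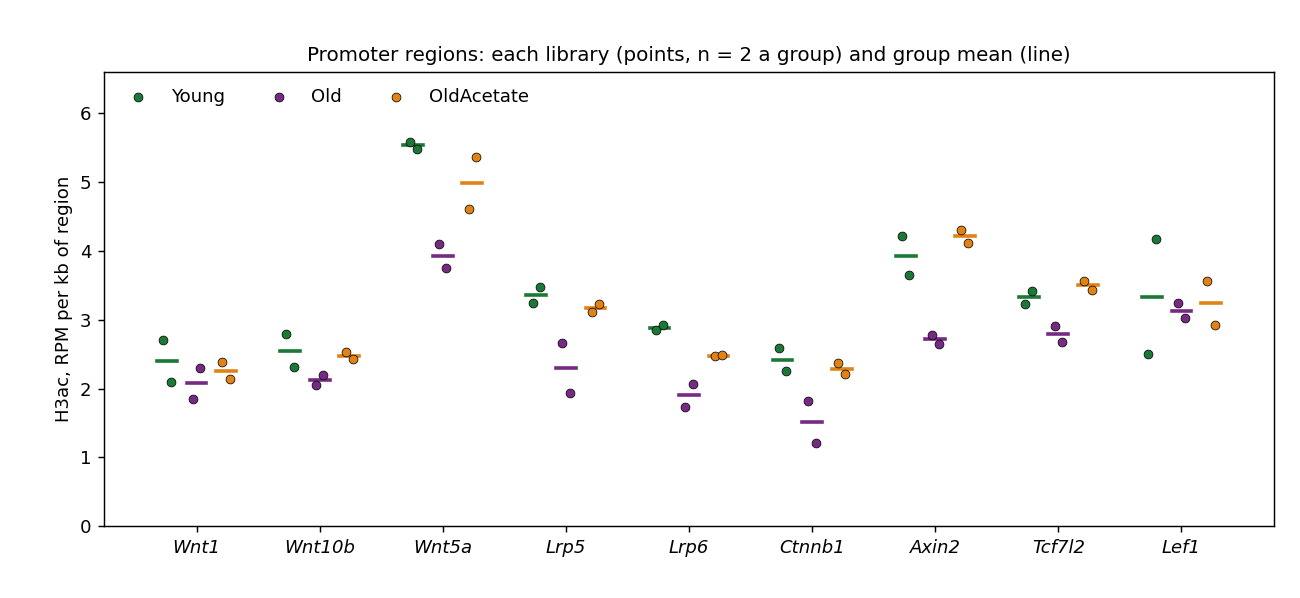
H3ac at the 9 promoter regions in RPM per kb of region (vertical axis, from 0) by gene (horizontal axis), with 1 point per library, 2 libraries a group, and a line at each group mean. At 7 genes both Old points lie below both Young and both OldAcetate points, whereas at Wnt1 and Lef1 the groups overlap. Among all promoter regions, Old lay below Young in this way in 65.7% and below OldAcetate in 58.6%. The share with both was not computed.

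The mean H3ac of each of the 9 genes with a region was lower in Old than in Young and higher in OldAcetate than in Old, as it was over all regions, and at Wnt1 and Lef1 the groups overlapped in both comparisons. Region names hold a code of Y, O and AC, undefined by the labels, which lacked O at Wnt1 and the intronic Ctnnb1 region. These regions had AC and Y without O, as did 12.1% of all regions. After centring, described next, no member region was called in either comparison. Summed over the regions of a gene, the mean RPM of Old was 69.0% of Young at Axin2 and 70.1% at Ctnnb1. It was 77.0% at Wnt5a, 77.3% at Lrp6, 77.7% at Lrp5, 80.4% at Tcf7l2, 83.3% at Wnt10b, 86.5% at Wnt1 and 93.9% at Lef1, against 78.1% over all regions. For Axin2 the group means with their SD (n = 2) were 29.5 ± 2.98 RPM for Young, 20.3 ± 0.647 RPM for Old and 31.6 ± 0.985 RPM for OldAcetate. OldAcetate was 155% of Old at Axin2, 136% at Ctnnb1 and between 104% (Lef1) and 124% (Lrp5) at the other 7 genes, against 119% over all regions.

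Single regions were tested with limma over all 24431 regions after each library was centred on the median region, which removes a shift common to the table. Fold changes are on the log2(RPM + 0.5) scale, which understates changes of low regions. None of the 22 regions passed an adjusted p of 0.05 in Old against Young, where 0.00819% of all regions did. OldAcetate against Old also had 0 of 22, with 0% of all regions called, and OldAcetate against Young had 0 of 22, again with 0% called. At an unadjusted p under 0.05, 1 of 22 regions differed in Old against Young (5.54% of all regions), 2 in OldAcetate against Old (6.24%) and 1 in OldAcetate against Young (5.08%). The regions behind these counts changed when single libraries were left out. The region in Old against Young was the Lrp6 region 86.5 kb inside the gene, lower in Old. Without Old replicate 1 the only one was the Ctnnb1 promoter region (7.73% of all regions in either direction), and without Old replicate 2 there were 2, both of Lrp6 (8.3%). Without Young replicate 1 it was instead the 3′ Lrp6 region and without Young replicate 2 the Lef1 promoter region, each higher in Old (4.47% and 3.66%). The pair in OldAcetate against Old, higher in OldAcetate, was the Ctnnb1 and Axin2 promoter regions, which also depended on the Old libraries left out. Neither stayed without an OldAcetate library: the count was 0 without replicate 1 (5.13%), and without replicate 2 it was 1, a Tcf7l2 region lower in OldAcetate (4.25%). In OldAcetate against Young the region was the Lrp6 region 19.5 kb inside, lower in OldAcetate. That count was 0 without either OldAcetate library (4.2% and 3.84%), and without Young replicate 1 or 2 it was 1 region higher in OldAcetate, the 3′ Lrp6 region or the Tcf7l2 promoter (3.66% and 3.72%). With edgeR and TMM factors on the recovered reads the adjusted calls were 0, 0 and 0 of 22, where 0.0327%, 0% and 0% of all regions were called, and the unadjusted ones were 0, 2 and 1 of 22 (5.17%, 5.35% and 6.76% of all regions).

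Without centring, so that the shift of the table is kept, limma called 4 of the 22 regions lower in Old than in Young, where 9.5% of all regions were called lower. These were the promoter regions of Wnt5a, Lrp6 and Ctnnb1 and an internal Lrp6 region. When 1 library was left out, the count was 0 without Young replicate 1 (0.0368% of all regions), 6 without Young replicate 2 (8.69%), 4 without Old replicate 1 (13.3%), 2 without Old replicate 2 (2.01%), and 3 without OldAcetate replicate 1 (2.62%) or 2 (2.95%). The regions also differed. The call of the Wnt5a promoter was kept in 1 of these 6 fits, the one without Old replicate 1. Both Lrp6 calls were kept in 4, and lost without Young replicate 1 and without Old replicate 1. The Ctnnb1 promoter call was kept in 4, and lost without Young replicate 1 and without Old replicate 2. At an unadjusted p under 0.05, 11 of 22 were lower in Old (31.9% of all regions), with 5 without Young replicate 1 (14.6%) and 5 without Old replicate 2 (20.2%).

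For OldAcetate against Old the uncentred fit called 0 of 22 higher at the adjusted threshold (0.311% of all regions). That adjusted count was 1 without Old replicate 1, the Ctnnb1 promoter region (1.81% of all regions), and 1 without Old replicate 2, the Lrp6 region 86.5 kb inside the gene (0.422%). At an unadjusted p under 0.05 it was 10 of 22 (17.7%), with 4 without Old replicate 2 (12.1%), 4 without OldAcetate replicate 1 (8.95%) and 4 without OldAcetate replicate 2 (10.1%). For OldAcetate against Young 0 of 22 were called (0% of all regions), and 1 of 22 was lower at an unadjusted p under 0.05 (5.62%). None was lower at that p without Young replicate 1 (1.71%), Young replicate 2 (7.9%) or OldAcetate replicate 2 (3.46%), and 2 were without Old replicate 1 (6.93%).

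**Figure D4:**
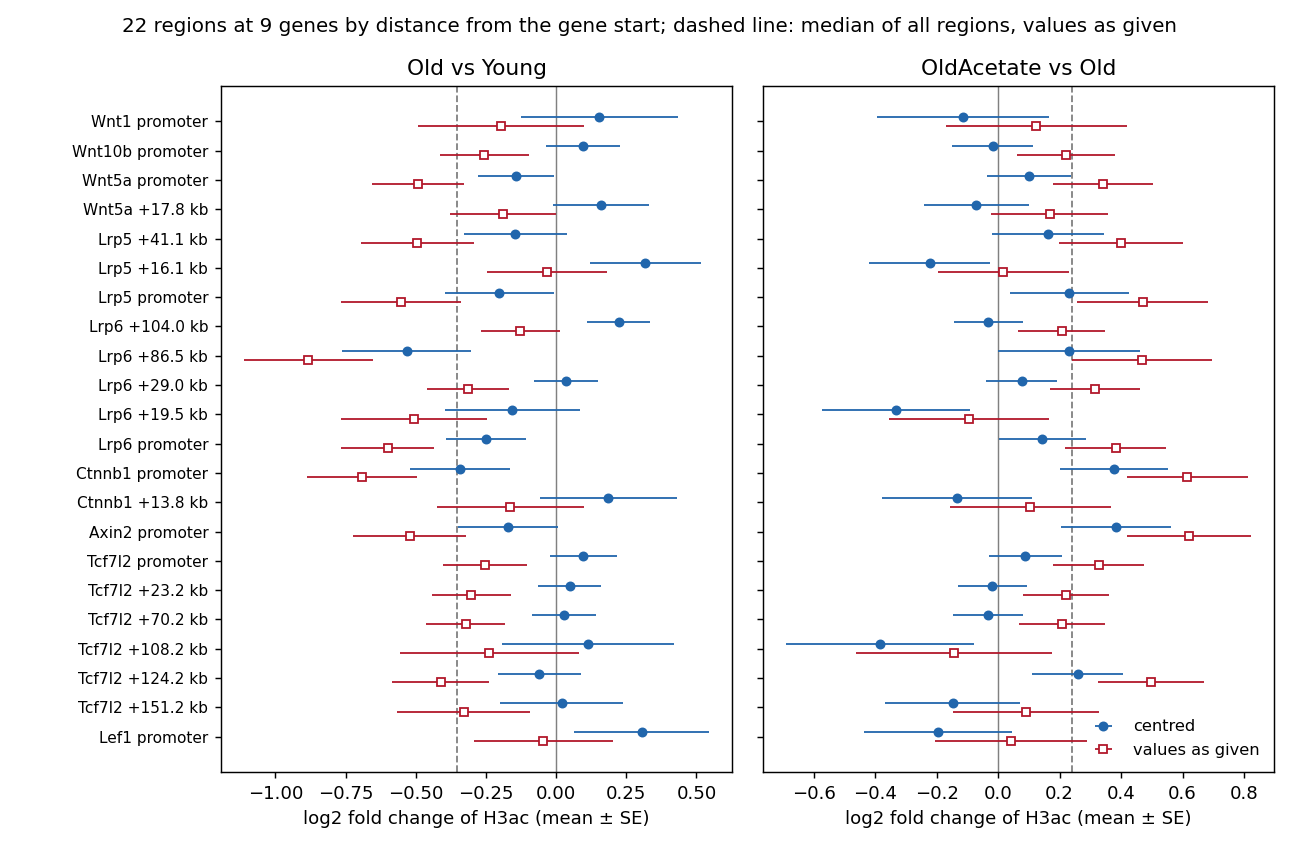
Log2 fold change of H3ac with its SE (horizontal axis) for each of the 22 regions (vertical axis, named as promoter or by the distance of the region's near edge from the 5′ end of the gene), for Old vs Young on the left and OldAcetate vs Old on the right, 2 libraries a group. Filled blue points are after centring and open red squares are the values as given, and the dashed lines mark the median of all regions as given at -0.35 and 0.24. The red squares spread around the dashed lines and the blue points around 0.

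The ligands were Wnt1 and Wnt10b, both mainly canonical, and Wnt5a, which is best known for the non-canonical branch. The Wnt1 promoter region (chr15:98788501-98793000) lay over the start and coding exon sequence and was low, with 18 to 37 reads a library. It had 12.2 and 9.39 RPM in Young, 8.32 and 10.3 RPM in Old, and 10.8 and 9.59 RPM in OldAcetate. All 3 groups overlapped. The centred log2 fold change of Old against Young was 0.15 ± 0.28 (SE; limma adjusted p = 0.972) and that as given -0.20 ± 0.29 (adjusted p = 0.630), and counting error alone was 23.6% of the lowest value.

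Wnt10b was covered from end to end by 1 region of 22500 bp (chr15:98759501-98782000). It had 62.8 and 51.9 RPM in Young, 46.2 and 49.3 RPM in Old, and 56.8 and 54.6 RPM in OldAcetate. Both Old libraries were below the others, while Young and OldAcetate overlapped. After centring, Old differed from Young by 0.09 ± 0.13 on the log2 scale (SE; limma adjusted p = 0.964), against -0.26 as given (adjusted p = 0.243). OldAcetate differed from Old by -0.02 ± 0.13 after centring (limma adjusted p = 0.994) and 0.22 as given (adjusted p = 0.452), so both signs turned with the scale.

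The Wnt5a promoter region (chr14:28503501-28514000) carried more H3ac per kb than any other promoter region of these genes. It had 58.6 and 57.6 RPM in Young, 43.0 and 39.4 RPM in Old, and 48.4 and 56.3 RPM in OldAcetate. The Old libraries were lowest and the Young libraries highest, with no overlap between any of the groups. On the values as given Old was lower than Young by a log2 fold change of -0.49 ± 0.16 (SE; limma adjusted p = 0.0412), a call kept in 1 of the 6 fits that left out a library, whereas after centring it was -0.14 ± 0.14 (adjusted p = 0.944). The second Wnt5a region, at the 3′ end of the gene (chr14:28522501-28536500), had 30.9 and 34.3 RPM in Young, 31.4 and 25.9 RPM in Old, and 31.3 and 33.0 RPM in OldAcetate. Its groups overlapped in each comparison.

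Lrp5 and Lrp6 encode the co-receptors that Wnt ligands bring together with Frizzled proteins. The Lrp5 promoter region (chr19:3680001-3688000) had 26.0 and 27.8 RPM in Young, 21.3 and 15.5 RPM in Old, and 24.9 and 25.9 RPM in OldAcetate. The groups did not overlap, with Old lowest, but the pair of Old libraries differed by more than the pairs of the other groups. Its centred log2 fold changes were -0.20 ± 0.19 in Old against Young (SE; limma adjusted p = 0.944) and 0.23 ± 0.19 in OldAcetate against Old (adjusted p = 0.908). Of the intronic Lrp5 regions, the one 41.1 kb inside the gene (chr19:3637501-3645500) had 32.6 and 29.001 RPM in Young, 20.3 and 23.1 RPM in Old, and 31.9 and 25.9 RPM in OldAcetate. Old was below both other groups there, as at the promoter, but Young and OldAcetate overlapped. The other one, 16.1 kb inside, had group means of 23.6, 23.0 and 23.7 RPM in Young, Old and OldAcetate, and all groups overlapped.

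Lrp6 held 5 regions. Its promoter region (chr6:134549501-134569500) had 56.9 and 58.4 RPM in Young, 34.7 and 41.4 RPM in Old, and 49.4 and 49.6 RPM in OldAcetate. Each group was separate from the others, in the order Young, OldAcetate, Old. Old was lower than Young on the values as given by a log2 fold change of -0.60 ± 0.16 (SE; limma adjusted p = 0.0193), and after centring the difference was -0.25 ± 0.14 (adjusted p = 0.898). The Lrp6 region 86.5 kb inside the gene, over coding exon sequence (chr6:134471501-134480500), had 29.9 and 26.1 RPM in Young, 10.2 and 21.9 RPM in Old, and 20.5 and 21.3 RPM in OldAcetate. Old replicate 1, with 22 reads, was far below Old replicate 2, with 55 reads. This was the member region with an unadjusted p under 0.05 in Old against Young, at -0.53 ± 0.23 after centring (limma adjusted p = 0.866) and -0.88 ± 0.23 as given (adjusted p = 0.0148). Without Old replicate 1 the centred value was 0.06, and without Old replicate 2 it was -1.13, so a single library set its size and sign.

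The Lrp6 region 19.5 kb inside the gene (chr6:134542001-134547500) had 17.8 and 18.0 RPM in Young, 13.9 and 11.1 RPM in Old, and 12.4 and 10.8 RPM in OldAcetate. Unlike the promoter, it had overlapping Old and OldAcetate groups, both below Young. It was the member region with an unadjusted p under 0.05 in OldAcetate against Young, by -0.49 ± 0.24 after centring (SE; limma adjusted p = 0.964). The widest Lrp6 region, 38500 bp at the 3′ end and into Bcl2l14 (chr6:134424501-134463000), had 106.6 and 70.7 RPM in Young, 80.9 and 78.0 RPM in Old, and 95.1 and 88.4 RPM in OldAcetate. The Young libraries lay above and below all the others. The remaining Lrp6 region, from 28965 bp inside the gene, had a mean of 78.0 RPM in Young, 63.0 in Old and 77.9 in OldAcetate, with both Old libraries lowest.

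Ctnnb1 encodes β-catenin, the transducer of the canonical branch. Its promoter region (chr9:120926501-120941000) had 37.5 and 32.7 RPM in Young, 26.3 and 17.5 RPM in Old, and 34.3 and 32.1 RPM in OldAcetate. Both Old libraries were below all others, and Young and OldAcetate overlapped. Old was lower than Young on the values as given by a log2 fold change of -0.69 ± 0.20 (SE; limma adjusted p = 0.0221), and after centring the difference was -0.34 ± 0.18 (adjusted p = 0.894). OldAcetate was above Old by 0.38 ± 0.18 after centring (limma adjusted p = 0.777) and by 0.62 ± 0.20 as given (adjusted p = 0.107). The intronic Ctnnb1 region 13.8 kb inside the gene (chr9:120943001-120949500) had 14.5 and 13.9 RPM in Young, 12.5 and 12.7 RPM in Old, and 15.8 and 11.7 RPM in OldAcetate. Both of its Old libraries were below the Young libraries, as at the promoter, but Old and OldAcetate overlapped.

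Axin2 encodes a scaffold of the destruction complex and is itself a widely used target gene of β-catenin signalling. Its single region, over the promoter and coding exon sequence (chr11:108918001-108925500), had 31.6 and 27.4 RPM in Young, 20.8 and 19.9 RPM in Old, and 32.3 and 30.9 RPM in OldAcetate. The Old libraries were lowest with little spread, and OldAcetate overlapped Young. OldAcetate was above Old by 0.38 ± 0.18 after centring (SE; limma adjusted p = 0.777) and by 0.62 ± 0.20 as given (adjusted p = 0.111). Old differed from Young by -0.17 ± 0.18 after centring (adjusted p = 0.950) and by -0.52 ± 0.20 as given (adjusted p = 0.0706). The Axin2 and Ctnnb1 promoter regions were the pair of member regions below an unadjusted p of 0.05 for acetate treatment after centring, where the values as given had 10, and neither passed the adjusted threshold on either scale.

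Tcf7l2 and Lef1 encode the DNA-binding partners of β-catenin. The Tcf7l2 promoter region of 21000 bp (chr19:55739501-55760500) had 67.8 and 71.9 RPM in Young, 61.0 and 56.1 RPM in Old, and 74.9 and 72.2 RPM in OldAcetate. It was the only one of the 22 regions at which both OldAcetate libraries lay above both Young libraries, as they did in 7.6% of all regions, and the difference of 0.19 ± 0.12 after centring did not pass (SE; limma adjusted p = 0.974). Old differed from Young by 0.10 ± 0.12 after centring (adjusted p = 0.961) and by -0.25 ± 0.15 as given (adjusted p = 0.215). Of the 5 other Tcf7l2 regions, the one with the highest RPM (chr19:55812001-55847500, 70.2 kb inside the gene) had 104.3 and 89.5 RPM in Young, 83.7 and 71.2 RPM in Old, and 75.9 and 104.7 RPM in OldAcetate. Its OldAcetate libraries were thus further apart than the groups were. The centred changes of the 5 regions were between -0.06 and 0.11 in Old against Young and between -0.38 and 0.26 in OldAcetate against Old, with a lowest limma adjusted p of 0.835.

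Lef1 had the smallest share of its window covered. Its region (chr3:131108501-131113500) had 12.5 and 20.8 RPM in Young, 16.2 and 15.1 RPM in Old, and 17.8 and 14.6 RPM in OldAcetate. The Young libraries were the lowest and the highest of the 6, so all groups overlapped. The centred change of Old against Young was 0.30 ± 0.24 (SE; limma adjusted p = 0.928) and that as given -0.05 (adjusted p = 0.901), and leaving out Young replicate 1 or 2 gave centred values of -0.13 and 0.74.

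Dkk1, the secreted antagonist, had no region within 5 kb of its body. The nearest region of the table (chr19:30801001-30806000) lay 251336 bp upstream. No level can be given for Dkk1, since the table lists only called regions and no reads outside them.

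Counted by libraries, both Old libraries were below both Young libraries in 15 of the 22 regions, against 60.2% of all regions, and in 7 of the 9 promoter regions, against 65.7% of all promoter regions. The 15 include the intronic Ctnnb1 region, whose code lacked O. How far the choice of regions set the directions here and below was not tested. Both OldAcetate libraries were above both Old libraries in 11 of the 22 (47.1% of all regions) and in 7 of the 9 promoter regions (58.6%). OldAcetate was below Young in this way in 5 of the 22 (29.8%). The same 7 promoter regions, of Wnt10b, Wnt5a, Lrp5, Lrp6, Ctnnb1, Axin2 and Tcf7l2, were lowest in Old in both comparisons, together with 3 other regions of Lrp5, Lrp6 and Tcf7l2. The share of all regions lowest in Old in both comparisons was not computed, so this list cannot be read as particular to these genes. Both comparisons use the Old libraries, so their directions are not independent. An exact permutation test of 2 libraries against 2 cannot give a p below 0.333.

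As medians, the 9 promoter regions changed by -0.14 after centring in Old against Young, where the 9892 promoter regions of the table had -0.01, and by -0.49 as given, against -0.36. The centred median was -0.072 without Young replicate 2, -0.063 without Old replicate 1, -0.055 without Old replicate 2 and -0.061 with promoters taken from any coding transcript. In OldAcetate against Old the medians were 0.10 after centring (0.16 without OldAcetate replicate 1), against 0.05, and 0.34 as given, against 0.29. In OldAcetate against Young they were 0.04 after centring (0.092 without OldAcetate replicate 2 and 0.061 without OldAcetate replicate 1), against 0.05, and -0.07 as given, against -0.06. The 13 other regions had medians of 0.04 and -0.03 after centring in the first and second of these comparisons, and all regions away from promoters had -0.0038 and -0.04. As given, each of the 22 regions was below 0 in Old against Young, as were 92.1% of all regions. In OldAcetate against Old 20 of the 22 were above 0 as given, where only 16.8% of all regions were below 0.

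A wider list of 75 other Wnt pathway genes was read out of the same fit. A region was present for 62 of them and a promoter region for 58. Genes without a region were the ligand genes Wnt3, Wnt4, Wnt7a, Wnt8a, Wnt8b and Wnt9b and the agonist gene Rspo4, the receptor genes Fzd3, Fzd10 and Lgr5, and the antagonist genes Sfrp5, Sost and Sostdc1. None of the 58 promoter regions passed an adjusted p of 0.05 in limma after centring in any of the 3 comparisons. At an unadjusted p under 0.05, 1 was higher and 2 lower in Old against Young, 2 higher and 3 lower in OldAcetate against Old, and 3 higher and 4 lower in OldAcetate against Young. These were 5.17%, 8.62% and 12.1% of the 58, where all regions had 5.54%, 6.24% and 5.08%. On the values as given 8 of the 58 were called lower in Old than in Young, Porcn and Dkk2 among them, where 9.5% of all regions were. For these counts the shares among promoter regions alone were not computed.

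The 3 with the lowest p in Old against Young were Dvl3, Porcn and Dkk2. Dvl3, a Dishevelled adaptor gene, had a centred log2 fold change of 0.40 ± 0.17 (SE; limma adjusted p = 0.865), and its region also covered Eif2b5. Porcn, whose product attaches the lipid of Wnt ligands, had -0.81 ± 0.38 (adjusted p = 0.894) at 1.99 to 8.76 RPM. Dkk2, a relative of Dkk1, had 18.1 and 20.0 RPM in Young, 11.1 and 9.55 RPM in Old, and 11.8 and 15.02 RPM in OldAcetate, a centred difference of -0.51 ± 0.24 in Old against Young (adjusted p = 0.894). All OldAcetate and Old libraries of Dkk2 were below the Young libraries.

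In OldAcetate against Old the 3 were Btrc, Fzd9 and Sp5. Btrc, encoding the ubiquitin ligase subunit that recognises β-catenin, had 11.1 and 10.7 RPM in Old and 22.5 and 17.1 RPM in OldAcetate, with a centred difference of 0.58 ± 0.24 (SE; limma adjusted p = 0.768). The receptor gene Fzd9 had -0.66 ± 0.28 (adjusted p = 0.769) and the target gene Sp5 had -0.89 ± 0.40 (adjusted p = 0.777). Sp5 was low, with 6.01 and 5.57 RPM in Old and 3.70 and 3.34 RPM in OldAcetate. In OldAcetate against Young the 3 were the ligand gene Wnt7b at 0.62 ± 0.24, Fzd9 at -0.66 ± 0.28 and the target gene Nkd1 at -0.63 ± 0.27, each with an adjusted p of 0.964. The centred medians of ligands, receptors, transducers, nuclear factors, antagonists and targets ran from -0.08 to 0.03 in Old against Young and from -0.15 to 0.12 in OldAcetate against Old.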

How the data were processed

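Reads in H3ac CUT&RUN libraries of mouse MSCs were given by the authors as 1 table with a common set of regions and 6 value columns, all used. The submitters' processing notes name Bowtie2, Picard and mm10, without their roles. The caller of the regions and the totals used for scaling are not given in the sources used here. Yeast DNA was added when the nuclease was stopped, and whether it was used for scaling is not stated. The study's text given here describes other experiments and was not used for methods. Each region name holds a code of the letters Y, O and AC, which the labels do not define. All 3 codes were present at 20 of the 22 regions, against 80.6% of all regions. The Wnt1 promoter region and the intronic Ctnnb1 region had AC and Y without O, as did 12.1% of all regions.

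The deposited values were taken as RPM although the table is named for RPKM. A single step per library divided 100% of its values into whole numbers at any region length (tolerance 0.01). Whole reads were recovered from this step. Library totals follow from it only if values are scaled to each library's own total, which was not tested. The planned test allowed for either unit. Groups were compared with limma 3.58.1 (R 4.3.3) on log2(RPM + 0.5) over all 24431 regions, with libraries centred on their median deviation from the region means, group means of all 6 libraries in 1 fit, eBayes with trend and robust, and Benjamini-Hochberg adjustment at 0.05. The fit was tested on simulated data, with changes larger than those of the member regions and only in regions above the median level. That test cannot show whether changes of the size seen here would be found. Alternatives were pseudocounts of 0.1 and 1, no centring, removal of the lowest 25% of regions, the replicate number as a block, edgeR 4.0.16 quasi-likelihood tests on the recovered reads with and without TMM factors, promoters taken from any coding transcript, and leaving out each library. Leaving out libraries without centring was added after the data were seen.

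The genes, gene lists and tests were chosen with earlier results of these data known. All 10 genes are named. Each has its promoter region given, its other region of highest mean RPM, and any other region with an unadjusted p under 0.05. Remaining regions mentioned were chosen after their values were seen. Of the wider Wnt list, up to 3 genes with the lowest p below 0.05 are named in each comparison. Gene positions are from GENCODE M21, promoter windows from RefSeq (GRCm38.p6). Centring removes a shift shared by the regions of a library, and the uncentred values keep it. Counting error alone was between 7.47% and 24.3% of the lowest library's value in these regions. Python 3.11.15 and matplotlib 3.10.9 were used for tables and figures.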

Additional observations from a re-analysis of the deposited data

How the results depend on the processing

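The count of called regions after centring stayed at 0 of 22 in all 3 comparisons with pseudocounts of 0.1 and 1, without the lowest 25% of regions, with edgeR and TMM factors, and without any single library. The median change of the 9 promoter regions also kept its sign in these settings. The fits that keep the shift of the table moved these results by construction. In Old against Young, 4 regions were called on the values as given and 4 with edgeR without factors, and the promoter medians were -0.49 and -0.50. The medians were 0.34 and 0.34 in OldAcetate against Old and -0.071 and -0.082 in OldAcetate against Young. With promoters taken from any coding transcript the Old against Young median was -0.061, since other regions then enter it.

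The sign of a region turned in these 2 fits where its centred change was smaller than the shift. In Old against Young, 13 of the 22 regions were above 0 after centring and 0 as given. The lists here and for left-out libraries below are not complete. They cover promoter regions, each gene's other region of highest mean RPM and those with an unadjusted p under 0.05. In Old against Young, the values as given and with edgeR without factors were -0.20 and -0.21 at the Wnt1 promoter, -0.26 and -0.27 at the Wnt10b promoter, -0.19 and -0.19 at the 3′ Wnt5a region and -0.13 and -0.17 at the 3′ Lrp6 region. They were -0.16 and -0.17 at the intronic Ctnnb1 region, -0.25 and -0.25 at the Tcf7l2 promoter, -0.32 and -0.33 at the Tcf7l2 region at 70.2 kb and -0.045 and -0.063 at the Lef1 promoter. In OldAcetate against Old they were 0.12 and 0.12 at the Wnt1 promoter, 0.22 and 0.22 at the Wnt10b promoter, 0.17 and 0.17 at the 3′ Wnt5a region and 0.21 and 0.21 at the 3′ Lrp6 region. The intronic Ctnnb1 region had 0.10 and 0.14, the Tcf7l2 region at 70.2 kb 0.21 and 0.22, and the Lef1 promoter 0.043 and 0.065. In OldAcetate against Young they were -0.071 and -0.093 at the Wnt1 promoter, -0.035 and -0.048 at the Wnt10b promoter, -0.021 and -0.020 at the 3′ Wnt5a region and -0.095 and -0.086 at the Lrp5 region at 41.1 kb. The Lrp5 promoter had -0.082 and -0.082, the Ctnnb1 promoter -0.076 and -0.084, the intronic Ctnnb1 region -0.059 and -0.030, and the Lef1 promoter -0.0024 as given.

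Leaving out 1 library at a time, the promoter median after centring ran from -0.15 to -0.055 in Old against Young (-0.055 without Old replicate 2), from 0.088 to 0.16 in OldAcetate against Old and from 0.029 to 0.092 in OldAcetate against Young. Single regions whose sign turned in this way, in Old against Young, were the promoters of Wnt1 (-0.055 to 0.36), Wnt10b (-0.013 to 0.20), Tcf7l2 (-0.026 to 0.22) and Lef1 (-0.13 to 0.74). The Lrp5 region at 41.1 kb (-0.29 to 0.0049), the Lrp6 region at 86.5 kb (-1.13 to 0.063) and the Tcf7l2 region at 70.2 kb (-0.026 to 0.083) also turned. In OldAcetate against Old they were the promoters of Wnt1 (-0.32 to 0.096), Wnt10b (-0.13 to 0.090), Wnt5a (-0.020 to 0.22) and Lrp6 (-0.043 to 0.33), the 3′ regions of Wnt5a (-0.15 to 0.0070) and Lrp6 (-0.071 to 0.0071), the Lrp6 region at 86.5 kb (-0.37 to 0.83), the intronic Ctnnb1 region (-0.33 to 0.063) and the Tcf7l2 region at 70.2 kb (-0.27 to 0.21). In OldAcetate against Young they were the promoters of Wnt1 (-0.056 to 0.14), Wnt5a (-0.16 to 0.080), Lrp5 (-0.098 to 0.16) and Lef1 (-0.33 to 0.55), the 3′ regions of Wnt5a (-0.064 to 0.25) and Lrp6 (-0.022 to 0.40), the Lrp5 region at 41.1 kb (-0.12 to 0.15), the intronic Ctnnb1 region (-0.14 to 0.25) and the Tcf7l2 region at 70.2 kb (-0.24 to 0.24). With 1 library left in a group, that library is assumed to vary like the others.

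With the replicate number as a block, 0 of 22 regions were called in each comparison and the promoter medians stayed at -0.14, 0.10 and 0.04. The count at an unadjusted p under 0.05 went from 1 to 0 in OldAcetate against Young, and with a pseudocount of 0.1 it went from 1 to 2 in Old against Young. Across regions, the differences between replicates 2 and 1 in Young correlated with those in Old at r = 0.01 and with those in OldAcetate at -0.03. Those of Old and OldAcetate correlated at -0.04. With a median of 31 to 56 reads a region, counting error could hide a shared source of libraries. These values therefore cannot exclude that the replicate numbers pair the libraries. The member regions held 17 to 324 reads a library, and the 95% interval of the Wnt1 change, one with few reads, ran from -0.40 to 0.71. How far depth set the number of calls was not tested.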
